A study of Mus musculus with 3 samples.

Results

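The Zbtb genes encode transcription factors with a BTB domain (also called POZ domain) at the amino end and zinc fingers at the carboxyl end. They were compared between mouse embryonic stem (ES) cells and the B cells and CD4 T cells of the spleen. The set was taken by symbol: every gene with a symbol of Zbtb followed by a number that had a probe set annotated to that symbol alone, without Zbtb7b and Zbtb46. This gave 38 of the 18193 genes on the array, each read from the probe set whose mean over the 3 arrays was highest. The rule works on symbols, so it also took Zbtb11os1, which is annotated as a long noncoding RNA and is no BTB zinc finger protein. The probe sets of Zbtb8os were annotated to more than 1 symbol and were not used.

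Each population was measured on 1 array, with C57BL/6 as the strain in all 3. The ES line was B6N-22, grown with leukemia inhibitory factor on embryonic fibroblasts that mitomycin C had stopped from dividing. The sources used here do not say whether these feeder cells were removed. The B220 B cells and the CD4 T cells came from spleens of 6 to 8 week old mice; magnetic beads gave a purity of more than 98%, per the labels. With 1 array a population there was no replicate error and no test, and every difference below compares arrays. The number of arrays limits the precision.

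In BTB zinc finger proteins the BTB domain joins the proteins into dimers and binds corepressors such as NCOR1 and BCOR, or the ubiquitin ligase subunit CUL3, while the fingers bind DNA. Most studied members are repressors. Several decide lymphocyte fates, among them PLZF in natural killer T cells and LRF in the choice between B and T cells. Another group, with Kaiso (Zbtb33), Zbtb4 and Zbtb38, binds methylated CpG sites.

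The regions upstream of 4 of the genes are shown because 3 of them belong to genes at least 4-fold different from ES cells, the other to Kaiso, and because they differ in CpG content, the sequence that the methyl-CpG binders read. Each is the 250 bases before an annotated transcription start in RefSeq (GRCm38.p6), written 5′ to 3′ on the gene's strand, with CG pairs in capitals. None of the 4 windows overlapped an annotated gene.
Zbtb4, chr11:69765662-69765911, plus strand: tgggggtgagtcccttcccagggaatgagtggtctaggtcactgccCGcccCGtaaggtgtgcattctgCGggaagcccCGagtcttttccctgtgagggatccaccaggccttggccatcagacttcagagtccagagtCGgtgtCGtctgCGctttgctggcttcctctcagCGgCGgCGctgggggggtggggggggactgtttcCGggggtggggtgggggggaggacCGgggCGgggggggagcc
Zbtb33, chrX:38189543-38189792, plus strand: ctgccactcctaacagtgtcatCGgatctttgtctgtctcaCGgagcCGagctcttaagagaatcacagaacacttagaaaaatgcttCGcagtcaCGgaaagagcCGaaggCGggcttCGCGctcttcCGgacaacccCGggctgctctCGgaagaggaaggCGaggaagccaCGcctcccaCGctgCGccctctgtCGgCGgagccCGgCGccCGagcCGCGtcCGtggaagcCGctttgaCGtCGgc
Zbtb18, chr1:177442101-177442350, plus strand, the first of 5 listed starts: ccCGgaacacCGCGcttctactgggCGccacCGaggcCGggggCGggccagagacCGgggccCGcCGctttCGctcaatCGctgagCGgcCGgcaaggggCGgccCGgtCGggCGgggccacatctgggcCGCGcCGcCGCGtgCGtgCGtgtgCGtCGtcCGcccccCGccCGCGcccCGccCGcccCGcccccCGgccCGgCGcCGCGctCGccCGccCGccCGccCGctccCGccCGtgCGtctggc
Zbtb8a, chr4:129378029-129378278, minus strand: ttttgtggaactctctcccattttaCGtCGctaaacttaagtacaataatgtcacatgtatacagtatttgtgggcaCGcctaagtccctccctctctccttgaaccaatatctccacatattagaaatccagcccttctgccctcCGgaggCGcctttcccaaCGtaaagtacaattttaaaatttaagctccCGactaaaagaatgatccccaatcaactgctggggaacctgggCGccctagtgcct
The Zbtb18 window held 47 CpG pairs and was 84.0% G and C. The Zbtb33 window held 27 at 62.4%, the Zbtb4 window 13 at 67.6% and the Zbtb8a window 8 at 45.6%.

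Of the 38 genes, 33 had at least 1 promoter window in the RefSeq table, with 45 windows in all. Their median was 20.0 CpG pairs per 250 bases and 64.8% G and C, against 6.00 pairs and 52.4% over all 32851 windows. The single window listed for Zbtb20 held 3 CpG pairs. Both strands of the windows were searched for 4 motifs. The ETS motif CCGGAAG was in 9 of the 45 windows (20.0%), against 6.91% of all windows. These windows belonged to Zbtb6, Zbtb11, Zbtb33, Zbtb34, Zbtb37, Zbtb38, Zbtb41, Zbtb43 and Zbtb45. The E-box CACGTG was in 5 windows (11.1%), of Zbtb11, Zbtb21, Zbtb25 and Zbtb49, against 6.02%. The Kaiso sequence TCCTGCNA was in 4 windows (8.89%), of Zbtb18 and Zbtb37, against 4.03%; the windows of Zbtb18 that held it lie at its later starts, which overlap. The octamer ATGCAAAT was in 0 of 45 windows, against 1.60% of all. The ETS motif and the E-box each hold a CpG pair and the octamer none. The shares were not adjusted for the higher CpG content of the Zbtb windows, so they do not show enrichment beyond it. These are matches of letters and were not tied to binding.

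The Zbtb genes were broadly detected. As detection level served the 50th percentile of all deposited values, a signal of 95. Above it were 33 of 38 (86.8%) in ES cells, 35 (92.1%) on the B cell array and 33 (86.8%) on the T cell array, beside 60.3%, 57.8% and 56.8% of all genes. In all 3 arrays, 29 were above it. Zbtb7c was below it in every array, at 45.5, 36.2 and 3.40 in ES, B and T cells. The other 8 were above it in some arrays and are Zbtb3, Zbtb5, Zbtb8b, Zbtb12, Zbtb16, Zbtb20, Zbtb37 and Zbtb49.

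Among the 29 genes above detection everywhere, the brightest and dimmest arrays differed by a median of 1.72-fold, and 72.4% spanned less than 2-fold. For all 8599 such genes the median was 2.10-fold and 46.4% spanned less than 2-fold. The range over the Zbtb genes ran from 1.08-fold for Zbtb26, with signals of 192 in ES cells, with 207 in B cells and 201 in T cells, to 13.1-fold for Zbtb18. The genes are given below by their known roles.

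**Figure D1:**
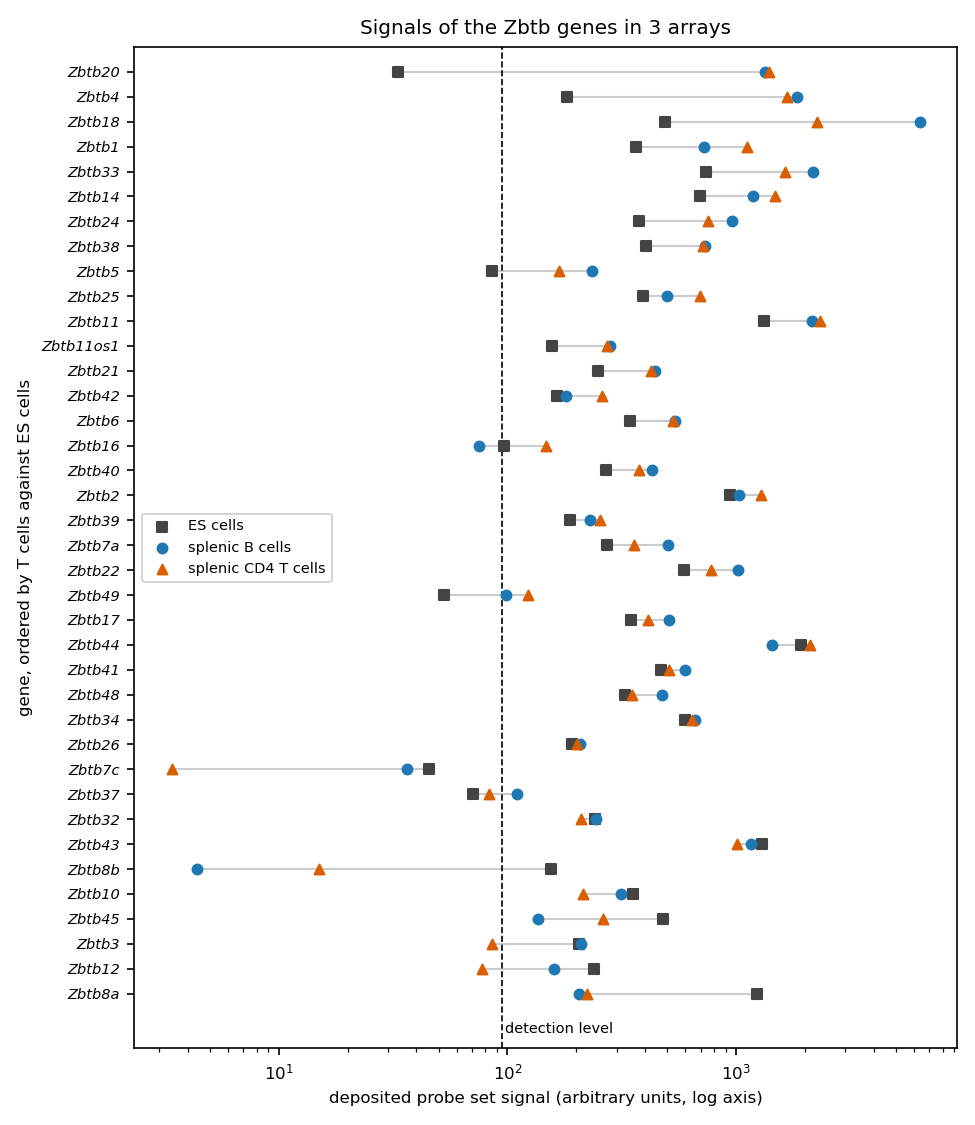
Deposited probe set signal of each of the 38 genes (log axis, arbitrary units) in ES cells (squares), B cells (circles) and T cells (triangles), 1 array each, with the detection level of 95 dashed; grey lines join the lowest and highest array, and Zbtb7c and Zbtb37, not measured in T cells against ES cells, are placed at 0 in the order. Zbtb20, Zbtb4 and Zbtb18 have the ES cell array far to the left, Zbtb8a has it far to the right, and most other genes have their 3 arrays close together.

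T cells were set against ES cells, to ask which family members differ between a splenic lymphocyte and a pluripotent cell. A gene counted as measured if 1 or both of the 2 arrays were above detection, and values below the detection level were raised to it, so that a fold against such an array is a lower bound. Among 36 measured Zbtb genes, 3 were higher in T cells by 4-fold or more, beside 10.8% of all measured genes, and 1 was at least 4-fold lower, beside 10.2%. At 2-fold, 6 were higher, beside 22.7%, and 3 lower, beside 24.7%. As shares of the 36 these are 8.33%, 2.78%, 16.7% and 8.33%, each below the share of all genes. With values raised to the detection level, 75% of the Zbtb genes and 52.6% of all genes lay within 2-fold. These shares also count lower bounds below 2-fold, whose true difference may be greater. Among the Zbtb genes these were Zbtb5, Zbtb8b and Zbtb49.

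B cells were set against the same ES cell array. Among 37 measured Zbtb genes, 3 were higher in B cells by 4-fold or more, beside 9.85% of all genes, and 1 was at least 4-fold lower, beside 10.3%. At 2-fold, 6 were higher, beside 21.1%, and 2 lower, beside 24.6%. Within 2-fold lay 78.4% of the Zbtb genes and 54.3% of all genes. Bounds below 2-fold are again counted, here those of Zbtb8b, Zbtb16, Zbtb37 and Zbtb49. Because both comparisons use 1 ES cell array, the values of each are given side by side. Agreement between them is not independent evidence.

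The medians depended on the scaling of the arrays. The median log2 difference was 0.45 in T cells against ES cells and 0.36 in B cells against ES cells, where all measured genes had -0.11 and -0.07. With the arrays scaled to a common 75th percentile the Zbtb medians were 0.07 and 0.05, and those of all genes -0.42 and -0.37. Relative to all genes the Zbtb median was 0.56 higher in T cells, or 0.49 with that scaling and 0.39 with quantile normalization. In B cells it was 0.43 higher, or 0.42 and 0.30. In T cells 28 of 36 measured Zbtb genes (77.8%) were above 0, beside 46.2% of all genes, and in B cells 29 of 37 (78.4%), beside 47.4%. With the 75th percentile 21 of 36 (58.3%) were above 0 in T cells, beside 35.4%, and 19 of 36 (52.8%) in B cells, beside 37.4%. The highest signal lay in the B cell array for 20 of 37 genes, in the T cell array for 11 and in the ES cell array for 6, where all genes had 28.5%, 25.6% and 45.9%. With the 75th percentile these counts were 15, 10 and 12, where all genes had 23.3%, 19.9% and 56.8%.

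**Figure D2:**
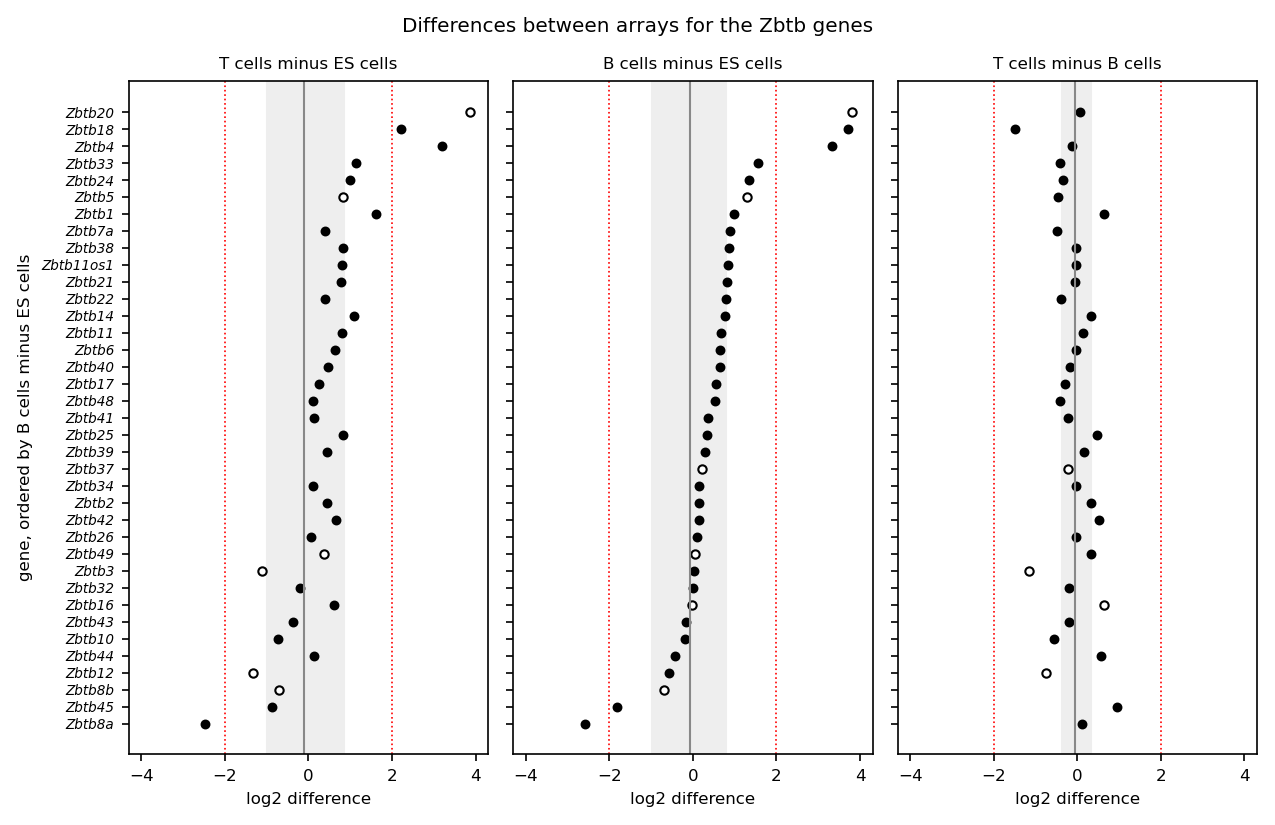
Log2 difference of each of the 37 genes above detection in some array, in 3 panels for T cells minus ES cells, B cells minus ES cells and T cells minus B cells, 1 array each; open circles are lower bounds, the grey band runs from the lower to the upper quartile of all measured genes with their median as a line, and dotted lines mark 4-fold. Zbtb20, Zbtb18 and Zbtb4 lie right of 4-fold and Zbtb8a left of it in the first 2 panels, and no gene passes 4-fold in the third.

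Among the genes with known roles in lymphocytes, Zbtb20 had the greatest difference. It encodes a repressor known from liver, hippocampus and long-lived plasma cells. Its signal was 33.3 in ES cells, below detection, against 1338 on the B cell and 1393 on the T cell array. The lymphocyte arrays were close to each other, at 1.04-fold, and both stood far above the ES cell array, by at least 14.7-fold in T cells and at least 14.1-fold in B cells. The gene has 9 probe sets, and each was below detection in ES cells and above it in both lymphocyte arrays. Their log2 differences ran from 2.06 to 3.87 in T cells and from 2.13 to 3.82 in B cells, all past 4-fold, and from -0.59 to 0.14 between T cells and B cells.

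Zbtb1, which is needed for lymphoid development, had signals of 366 in ES cells against 720 on the B cell and 1117 on the T cell array. The T cell array was highest, 3.06-fold above ES cells and 1.55-fold above B cells, and the B cell array was 1.97-fold above ES cells. Its other probe set, at 69.9, 217 and 481 in the same order, gave the same order of arrays, with at least 5.07-fold for T cells and at least 2.29-fold for B cells against ES cells and 2.22-fold for T cells against B cells.

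Zbtb25 is the next gene to Zbtb1 on the chromosome. Its signals were 393, 499 and 695 in ES, B and T cells, a difference of 1.77-fold for T cells and 1.27-fold for B cells against ES cells. The T cell array was again the highest, but no difference reached 2-fold. In B cells against ES cells its log2 difference was 0.34, and it was below 0 with quantile normalization and with the 75th percentile, at -0.01 and -0.0049.

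Zbtb24, mutated in a human syndrome of immunodeficiency with loss of centromeric DNA methylation, had signals of 378 in ES cells, with 963 on the B cell and 752 on the T cell array. The B cell array was 2.55-fold and the T cell array 1.99-fold above ES cells. Its dimmer probe set was above detection in B cells alone, at 109, where the bound against ES cells is 1.14-fold.

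Zbtb7a encodes LRF, a factor that restrains Notch signalling in B cell precursors. Its signals were 271 in ES cells against 505 in B cells and 359 in T cells. Differences stayed below 2-fold, at 1.86-fold for B cells and 1.32-fold for T cells against ES cells, and the second measured probe set gave 1.69-fold and 1.64-fold. Zbtb17 encodes Miz-1, a partner of MYC. Its signals of 346, 508 and 411 in ES, B and T cells lay within 1.47-fold of one another. In T cells against ES cells both genes changed sign with the scaling: with quantile normalization Zbtb7a was at -0.03 and Zbtb17 at -0.17 on the log2 scale, in place of 0.40 and 0.25.

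Zbtb16 encodes PLZF, the factor of natural killer T cells and other innate-like lymphocytes. It lay near the detection level, with signals of 96.3, 74.9 and 148 in ES, B and T cells, and was 1.54-fold higher in T cells than in ES cells. A second probe set gave 3.70 in ES cells, with 7.5 in B cells and 155 in T cells, above detection in T cells alone and at least 1.63-fold higher there. The third was below detection in every array. Zbtb32, a repressor known to limit lymphocyte activation and recall responses, was almost level, with signals of 242, 243 and 210 in ES, B and T cells. By group, 2 of these 8 genes exceeded the ES cell signal 2-fold or more in T cells, as did 2 in B cells, beside 22.7% and 21.1% of all genes, and 0 were that much lower in either, beside 24.7% and 24.6%.

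The 3 binders of methylated DNA all had their lowest signal in ES cells, which was common in the family. Of the 37 Zbtb genes above detection in some array, 18 were highest in B cells and lowest in ES cells. A further 9 were highest in T cells and lowest in ES cells. The share of all genes with these orders was not counted. Both orders rest on the 1 ES cell array and on the deposited scaling. With the 75th percentile the ES cell array was highest for 12 of the 37 genes, in place of 6. Zbtb4 had signals of 182 in ES cells against 1839 in B cells and 1672 in T cells. Both lymphocyte arrays stood far above the ES cell array, by 10.1-fold for B cells and 9.18-fold for T cells, and differed from each other by 1.10-fold. Of its 4 probe sets, 3 were measured, with log2 differences of 2.69 to 3.20 in T cells and 2.66 to 3.34 in B cells against ES cells. The fourth was below detection in every array, at 83.9, 32.3 and 19.4 in ES, B and T cells.

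Zbtb33 encodes Kaiso, which binds both methylated CpG pairs and an unmethylated sequence. Its signals were 737 in ES cells, with 2165 on the B cell and 1630 on the T cell array. The B cell array was 2.94-fold and the T cell array 2.21-fold above ES cells, and B cells were 1.33-fold above T cells. Its other probe set was below detection throughout.

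Zbtb38 had signals of 402 in ES cells against 732 in B cells and 714 in T cells, differences of 1.82-fold and 1.78-fold against ES cells. A second probe set, at 91.7, 266 and 412 in the same order, gave at least 2.80-fold for B cells and at least 4.33-fold for T cells. The probe sets share the order of ES cells below both lymphocytes, but differ on the size and on which lymphocyte array is higher.

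Zbtb18, also called RP58 and best known as a repressor in the developing cortex, had the widest range among the 29 genes above detection in all arrays. Its signals were 486, 6344 and 2255 in ES, B and T cells. The 3 arrays were well apart, with B cells 13.1-fold and T cells 4.64-fold above ES cells, and T cells 2.81-fold below B cells. It has 1 probe set, so no second reading was available. With the 75th percentile its log2 difference in T cells against ES cells was 1.83, short of 4-fold. This left 2 Zbtb genes at least 4-fold higher, beside 8.47% of all genes, and 1 lower, beside 13.5%.

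Of the other genes grouped with Zbtb18 by known work in nerve, muscle and metabolic tissues, Zbtb45 was lower in lymphocytes. Its signals were 479 in ES cells, with 136 on the B cell and 261 on the T cell array. The B cell array was the lowest, 3.53-fold below ES cells, and the T cell array was 1.83-fold below. With quantile normalization and with the 75th percentile the difference in B cells was -2.13 and -2.17 on the log2 scale and passed 4-fold. The split in B cells then was 3 higher and 2 lower. All genes had 8.58% higher and 11.7% lower with quantile normalization, and 7.99% and 13.4% with the 75th percentile. With detection at the 65th percentile, to which its B cell signal was raised, the difference was -0.97, a bound short of 2-fold. Zbtb42, a relative of Zbtb18 in skeletal muscle, had signals of 165, 181 and 260 in ES, B and T cells and stayed below 2-fold. Zbtb8b was above detection in ES cells alone, at 155, with 4.40 in B cells and 15.0 in T cells. Since 155 is close to the detection level, the bound on its difference was only 1.63-fold.

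Zbtb8a was the 1 Zbtb gene at least 4-fold lower in lymphocytes. Its signals were 1234 in ES cells against 206 on the B cell and 223 on the T cell array. The lymphocyte arrays lay within 1.08-fold of each other, 6.00-fold below ES cells for B cells and 5.54-fold for T cells. It has 1 probe set. Zbtb8a and Zbtb8b are neighbours on the chromosome.

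Zbtb12 and Zbtb3 were lower in T cells. Zbtb12 had signals of 238, 160 and 77.2 in ES, B and T cells, the last below detection, a difference of at least 2.51-fold for T cells and 1.49-fold for B cells against ES cells. Zbtb3 had 205 in ES cells, with 211 in B cells and 85.3 in T cells. By this probe set it was level between ES and B cells, and the T cell array was at least 2.16-fold below ES cells. In B cells against ES cells its log2 difference was 0.04. It was -0.32 with quantile normalization and -0.31 with the 75th percentile. The dimmer probe set of Zbtb3 was above detection in B cells alone, at 157, with 84.4 in ES cells and 39.7 in T cells. It was at least 1.65-fold higher in B cells than in ES cells.

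Zbtb14, a repressor first described at the Myc promoter, and Zbtb5, a repressor of the cell cycle inhibitor gene Cdkn1a, were higher in lymphocytes. Zbtb14 had signals of 697 in ES cells against 1188 in B cells and 1482 in T cells, 2.13-fold higher in T cells and 1.70-fold in B cells. All 4 of its probe sets were above 0 in T cells against ES cells, but from 0.27 to 1.09 on the log2 scale. Zbtb5 had 85.6 in ES cells, below detection, 233 in B cells and 168 in T cells, a rise over ES cells of at least 2.46-fold in B cells and of at least 1.77-fold in T cells.

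Among the 4 genes grouped under telomere and genome maintenance, no difference reached 2-fold in any comparison. Zbtb10, which binds variant telomere repeats, had signals of 355, 314 and 214 in ES, B and T cells, and all 3 of its probe sets were below 0 in both lymphocytes against ES cells. Its second probe set was 2.12-fold lower in T cells. Zbtb48, the telomere-binding factor TZAP, lay at 327, 473 and 352, Zbtb40 at 271, 427 and 377, and Zbtb2 at 939, 1033 and 1284. These 3 were lowest in ES cells by small margins.

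The arrays of the remaining genes also stayed within 2-fold once values below detection were raised to it. For Zbtb37 and Zbtb49 this gives bounds, and the true differences may be greater. They are Zbtb6, Zbtb11, Zbtb11os1, Zbtb21, Zbtb22, Zbtb26, Zbtb34, Zbtb37, Zbtb39, Zbtb41, Zbtb43, Zbtb44 and Zbtb49. Among them Zbtb11 had signals of 1330, 2137 and 2325 in ES, B and T cells, and Zbtb11os1, which lies inside the Zbtb11 gene, had 157, 280 and 272. Both were between 1.61-fold and 1.79-fold higher in lymphocytes. Zbtb43 had 1296, 1159 and 1007 in the same order and Zbtb34, its chromosomal neighbour, 599, 660 and 642. Zbtb6 had 342, 539 and 527, and its neighbour Zbtb26 was level. Zbtb44 had 1928, 1439 and 2114. Zbtb37 was above detection in B cells alone, at 111, and Zbtb49 in B and T cells, at 98.6 and 124.

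T cells were set against B cells to ask which members separate the lymphocytes. Among 36 measured Zbtb genes, 0 were higher in T cells by 4-fold or more, beside 2.49% of all measured genes, and 0 at least 4-fold lower, beside 1.85%. At 2-fold, 0 were higher, beside 8.89%, and 2 lower, beside 6.32%, namely Zbtb18 and Zbtb3. Zbtb3 was at least 2.22-fold lower. The next greatest difference was that of Zbtb45, 1.93-fold higher in T cells, or 0.95 on the log2 scale. With detection at the 65th percentile it was a bound of 0.10. The median log2 difference was -0.05 for the Zbtb genes and -0.05 for all genes, and 94.4% of the Zbtb genes lay within 2-fold beside 84.8% of all genes. Bounds below 2-fold are counted in these shares, here those of Zbtb12, Zbtb16 and Zbtb37. Of the genes left out by the rule, Zbtb7b, the CD4 lineage factor ThPOK, had signals of 161, 280 and 382 in ES, B and T cells, and Zbtb46, a marker of dendritic cells, 92.2, 119 and 150.

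Probe sets of a gene gave the only internal check of error, which covers probe effects and not cultures or animals. The 38 genes had 81 probe sets; 14 had 1, 13 had 2 and 11 had more. In T cells against ES cells, 11 Zbtb genes had both of their brightest probe sets measured. Of these pairs 9 (81.8%) lay within 2-fold, beside 72.7% over 5792 genes. Their median disagreement was 0.35 on the log2 scale, against 0.54 over the 5792 genes. In B cells against ES cells 12 of 14 pairs (85.7%) lay within 2-fold, beside 74.2% over all such genes. In T cells against B cells all 15 did, beside 93% over all such genes. Signs differed among measured probe sets for 3 genes in each comparison with ES cells and for 6 in T cells against B cells. Zbtb21 was the clearest case: its brightest probe set was 1.70-fold higher in T cells than in ES cells and the next 2.26-fold lower. Their means over the arrays differed by 1.05-fold, so the choice between them was narrow. Zbtb41 and Zbtb44 also had probe sets on both sides of 0 in T cells against ES cells, each within 2-fold.

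**Figure D3:**
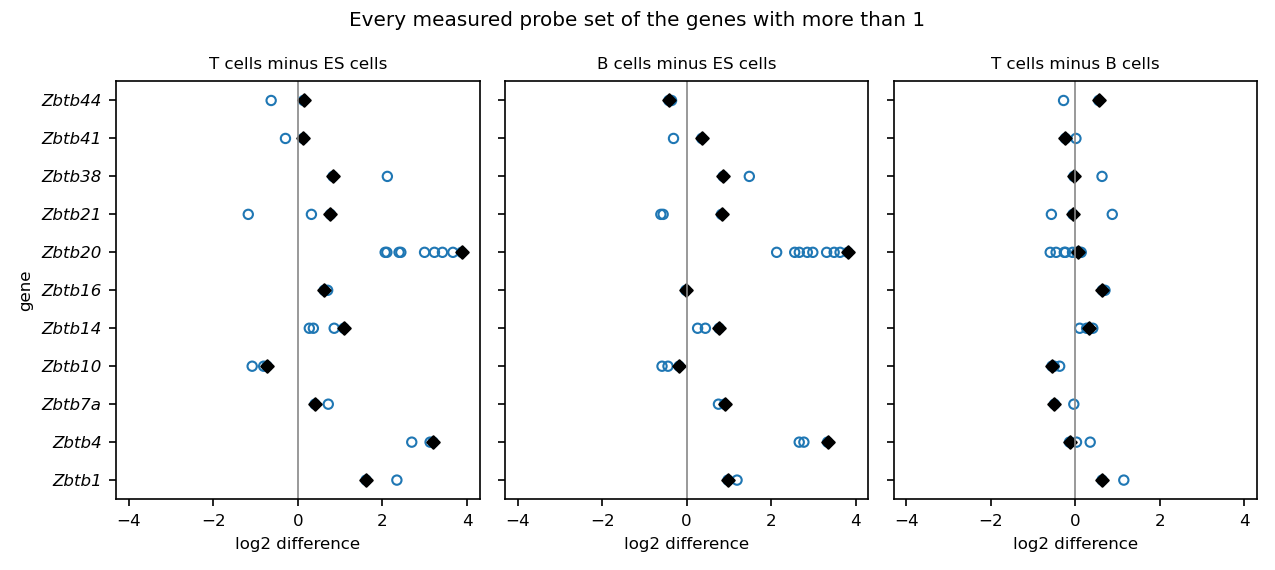
Log2 difference of every measured probe set for the 11 genes with more than 1 probe set measured in T cells against ES cells, in 3 panels for T cells minus ES cells, B cells minus ES cells and T cells minus B cells; black diamonds are the brightest probe set, which stands for the gene, and open circles the others. The 9 probe sets of Zbtb20 and the 3 measured ones of Zbtb4 all lie above 2 against ES cells, while those of Zbtb21 fall on both sides of 0.

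Genes of the same protein family that carry other names were followed through a list chosen with earlier results of these data known. Of 9 measured in T cells against ES cells, 1 was at least 4-fold higher, beside 10.8% of all genes, and 1 at least 4-fold lower, beside 10.2%, with a median log2 difference of -0.42. In B cells the counts were also 1 and 1 of 9, beside 9.85% and 10.3%, with a median of -0.50. Bcl6, the repressor of germinal centre B cells and follicular helper T cells, had signals of 182 in ES cells, with 1846 in B cells and 1175 in T cells, 10.1-fold and 6.45-fold higher, although its other probe set gave 1.53 and 1.0 on the log2 scale. Hic2 had 1596, 150 and 166 and was 10.7-fold lower in B cells and 9.61-fold in T cells. Its relative Hic1 had 562, 166 and 297, and Bcl6b, above detection in ES cells alone, had 240, 75.2 and 35.1.

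Partners that BTB domains recruit were followed in the same way. Of 18 measured corepressor and ubiquitin ligase genes, T cells against ES cells had 1 at least 4-fold higher and 1 at least 4-fold lower, beside 10.8% and 10.2% of all genes. The same counts held in B cells, beside 9.85% and 10.3%. At 2-fold 3 were higher and 2 lower in T cells, beside 22.7% and 24.7%, and 2 higher and 3 lower in B cells, beside 21.1% and 24.6%. The medians were 0.28 in T cells and 0.02 in B cells. Ncor1 had no probe set of 1 symbol and was not analysed here. Gps2, a subunit of a nuclear corepressor complex, had signals of 136, 757 and 593 in ES, B and T cells. The corepressor gene Ctbp2 had 16215, 169 and 358, 96.0-fold lower in B cells and 45.3-fold lower in T cells, and its second probe set gave -6.16 and -4.86 on the log2 scale. Bcor, a partner of BCL6, had 568, 1098 and 1408, and the 3 probe sets of Mta3 ran from -1.52 to 1.86 in T cells against ES cells.

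Of 12 measured partner genes that act with single members, T cells against ES cells had 1 at least 4-fold higher and 5 lower, beside 10.8% and 10.2% of all genes, the median being -0.54. In B cells 0 were higher and 4 lower, beside 9.85% and 10.3%, and the median was -0.39. This list was also chosen with earlier results of these data known, so the shares only describe it. The chromatin remodeller gene Hells had signals of 6553 in ES cells against 874 in B cells and 648 in T cells, 7.5-fold and 10.1-fold lower. Its 3 probe sets ran from -3.01 to -1.19 in B cells and from -3.34 to -0.81 in T cells on the log2 scale. The DNA methyltransferase gene Dnmt3b had 7920, 569 and 613, 13.9-fold and 12.9-fold lower. Cdca7, a target of the Zbtb24 protein, is in the list but singled out here after its values were seen. It had 2497, 673 and 374 in ES, B and T cells. A link between its signal and that of Zbtb24 was not tested. Ctnnd1, which encodes the p120 catenin that binds Kaiso and was also singled out from the list after its values were seen, had 612, 45.0 and 117. Its 3 probe sets ran from -2.69 to -0.78 in B cells and from -2.38 to -0.78 in T cells against ES cells on the log2 scale. Mycn had 3330, 5.20 and 4.20, although its probe sets ran from -5.13 to 1.18 on the log2 scale in B cells against ES cells. Gfi1, a partner of Miz-1, had 0.700, 181 and 876 in ES, B and T cells.

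**Figure D4:**
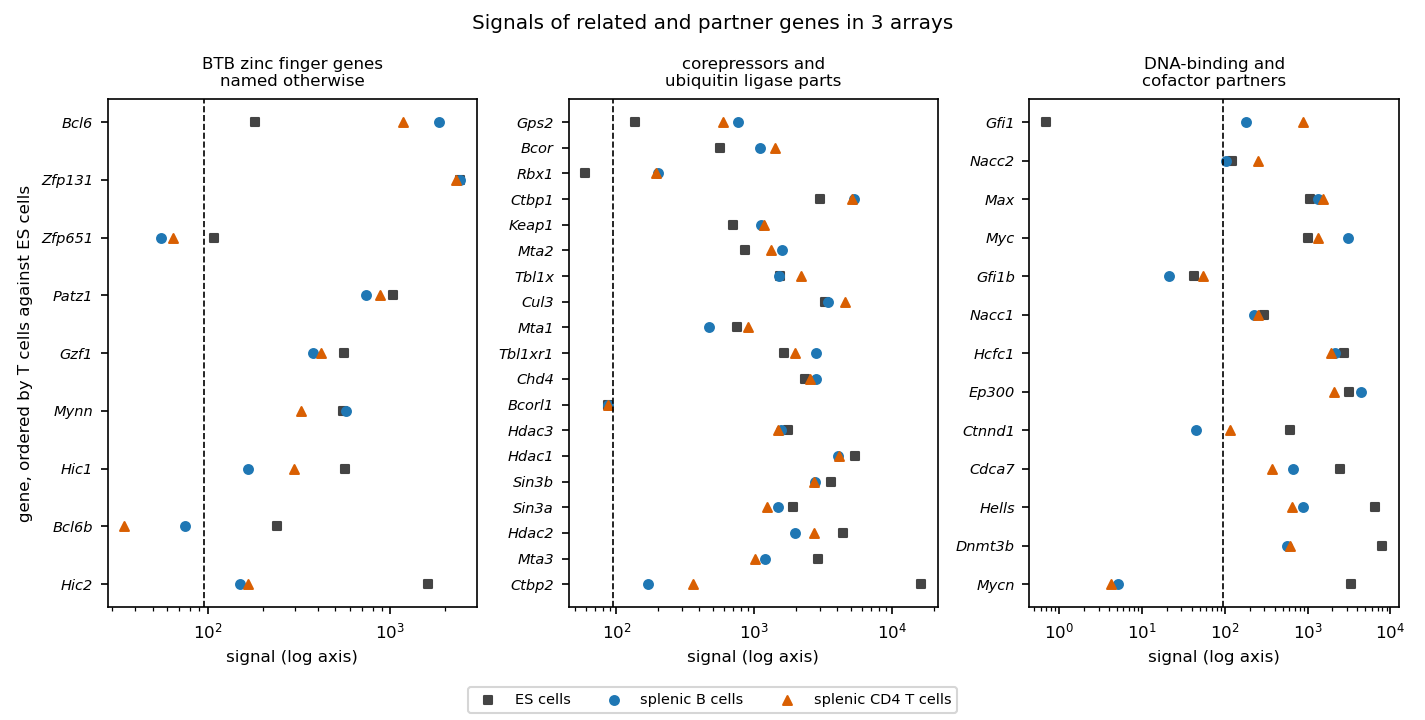
Deposited signal (log axis, arbitrary units) of 9 BTB zinc finger genes with other names, 19 corepressor and ubiquitin ligase genes and 13 DNA-binding and cofactor partners in ES cells (squares), B cells (circles) and T cells (triangles), 1 array each, with the detection level dashed. Bcl6 and Gps2 have the ES cell array far left of both lymphocytes, and Hic2, Ctbp2, Dnmt3b and Hells have it far right.

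Markers of the labelled cells had their highest sums in those cells, but were not confined to them. All 10 pluripotency genes were above detection in ES cells and 1 was in each lymphocyte array. The T cell list was summed at 83976 in T cells, 1352 in B cells and 1478 in ES cells, and the B cell list at 121610 in B cells, 6294 in T cells and 598 in ES cells. Of 9 T cell genes 9 were above detection in T cells, 7 in B cells and 2 in ES cells. Of 9 B cell genes 9 were above it in B cells, 8 in T cells and 1 in ES cells. Thy1, in both the T cell and the fibroblast list, made up 1180 of the ES cell sum of the T cell list. Markers of other cells were also present. Their counts stand beside 60.3%, 57.8% and 56.8% of all genes above detection on the ES, B and T cell arrays. A count above detection thus does not by itself show that such cells were there. All 10 macrophage genes were above detection in both lymphocyte arrays, with summed signals of 66581 in T cells, 27600 in B cells and 4010 in ES cells. Of 8 dendritic cell genes 7 were above it in each lymphocyte array and 1 in ES cells, with sums of 6359, 2127 and 1416 in T, B and ES cells. On the B cell array Itgax, Siglech, Ccr9 and Bst2 ran from 216 to 888. Flt3, Clec10a and Zbtb46 were there at 106, 105 and 119, near the detection level. Of 11 natural killer and cytotoxic genes 10 were above it in each lymphocyte array and 1 in ES cells, with sums of 7857, 3954 and 671. The 10 on the B cell array ran from 121 for Gzmb to 1279 for Gzma, so Gzmb also lay near the detection level. Of 7 plasma cell genes 6 were above it in each lymphocyte array and 3 in ES cells, with sums of 20181 in T cells, 41277 in B cells and 8487 in ES cells. All 14 fibroblast genes were above detection in ES cells, with a sum of 90872, and 4 in B cells and 3 in T cells. No marker was listed at 0. The part of these other cells in the Zbtb signals was not tested, and fewer cells of a type cannot be told apart from less RNA per cell.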

How the data were processed

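The table the authors deposited gives linear intensity values of 45037 probe sets, a column for each of 3 arrays. Total RNA was labelled with biotin using a 3′ IVT kit, per the labels' protocols, and Affymetrix Expression Console is named in the submitters' processing notes, without a version. The sources used here give no algorithm or scaling. Column means with 2% trimmed at each end were 497.3, 497.8 and 497.7 for ES, B and T cells, so equal total signal is built in and a general change of mRNA content cannot be seen.

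Probe sets were named by GEO's platform annotation, with 34945 carrying 1 symbol. The Entrez IDs of 34741 of them were found in a RefSeq gene table of GRCm38.p6, and 0 symbols changed. Values below the detection level were raised to it before log2 was taken. A gene was counted where the arrays differed by at least 4-fold, and separately 2-fold, with the brighter array above detection. Signals were compared between arrays for a gene, not between genes.

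Signals are given for genes at least 2-fold different in some comparison and for genes with lymphocyte or methylated DNA roles. The rest are described by counts, ranges and examples chosen after their values were seen. From each partner list up to 4 genes with the greatest difference are given. The genes and lists were chosen with earlier results of these data known. The alternatives comprised quantile normalization, 75th percentile scaling, 16 added in place of the floor, detection at the 65th percentile, and other choices of probe set. Python 3.11.15, pandas 2.3.3 and numpy 2.4.6 were used.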

Additional observations from a re-analysis of the deposited data

How the results depend on the processing

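The counts of Zbtb genes at 4-fold changed in these cases. In T cells against ES cells, 3 of 36 were higher, beside 10.8% of all genes. With the 75th percentile this was 2 of 36, without Zbtb18, beside 8.47%. With the second brightest probe set it was 5, with Zbtb1 and Zbtb38 added, but of only 25 measured genes, beside 10.2%. At 2-fold it was 6 of 36, beside 22.7%. Lower was 1 of 36, beside 10.2%. This became 2 with 16 added in place of the floor, which added Zbtb8b, beside 14.3%, and 3 at 2-fold, beside 24.7%. In B cells against ES cells, 3 of 37 were higher, beside 9.85%, and 6 at 2-fold, beside 21.1%. Lower was 1 of 37, beside 10.3%. It was 2 with quantile normalization (all genes 11.7%), the 75th percentile (13.4%), 16 added (14.2%) and at 2-fold (24.6%). In T cells against B cells, 0 of 36 were lower, beside 1.85%, and 2 at 2-fold, beside 6.32%. Of the Zbtb genes counted at 4-fold, 75% were higher in each lymphocyte against ES cells, which is 3 genes higher and 1 lower. For all counted genes the share was 51.5% in T cells and 48.8% in B cells. With so few Zbtb genes counted, 1 gene moves their share far, so it does not show that the family differs from all genes. In T cells the share was 66.7% with the 75th percentile (2 higher and 1 lower, all genes 38.6%). It was 60.0% with 16 added (3 and 2, all genes 46.8%) and 83.3% with the second brightest probe set (5 and 1, all genes 54.9%). In B cells, where 1 more gene was lower, it was 60.0% with quantile normalization (42.3%), the 75th percentile (37.4%) and 16 added (45.0%). Where every probe set had to pass, 2 genes were higher in each lymphocyte against ES cells, without Zbtb4. The share of all genes was not computed for this setting. Zbtb4 has 1 probe set below detection in every array, while its 3 measured ones were all past 4-fold. Zbtb18 has 1 probe set, so the setting asked no more of it. The median log2 difference in T cells against ES cells, 0.45, was 0.13 with quantile normalization, 0.0702 with the 75th percentile and 0.62 with the second brightest probe set. In B cells, 0.36, it was 0.0779, 0.0498 and 0.49 in the same order, 0.53 with 16 added and 0.66 with detection at the 65th percentile. The other alternatives, and all for T cells against B cells, moved the median by less than 0.1. For the 18 genes whose signals are given by rule, 347 values were computed under alternatives. Of these, 340 moved by less than the spread between probe sets and 7 by more. This spread is the standard deviation, over all genes, of the difference between the 2 brightest probe sets. It was 1.09 and 1.08 on the log2 scale in T and B cells against ES cells and 0.56 in T cells against B cells. A change of close to 2-fold against ES cells thus counts as small. Zbtb5, Zbtb8a, Zbtb12, Zbtb18 and Zbtb45 have 1 probe set and could not move with the choice of probe set. Leaving out probe sets with names ending in _s_at or _x_at could move only Zbtb7a among the 18 genes. The 340 thus include values that could not change. The sign changed in 14 of the 347 values, in 8 genes (Zbtb3, Zbtb4, Zbtb7a, Zbtb17, Zbtb20, Zbtb25, Zbtb32 and Zbtb38), and in 0 of the 4-fold differences. In T cells against B cells these were Zbtb4, Zbtb20 and Zbtb38, with Zbtb38 at 0.63 on the log2 scale with the second brightest probe set in place of -0.04. With detection at the 65th percentile the log2 bounds for Zbtb20 fell from 3.87 to 2.51 in T cells and from 3.82 to 2.45 in B cells, still past 4-fold. No paired analysis was possible because each population had 1 array. Signals near the detection level limit the folds of Zbtb3, Zbtb5, Zbtb8b, Zbtb12 and Zbtb16 to bounds or small values.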
